A study of Mus musculus with 4 samples.

Results

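Rab GTPases are small proteins that switch between a GDP-bound and a GTP-bound form, and in the GTP-bound form they sit on a given membrane and recruit the motors, tethers and lipid kinases that move and fuse it. Different Rabs mark the Golgi, early endosomes, recycling endosomes, late endosomes and secretory granules. Rab33b, a Rab of the Golgi, binds ATG16L1, the protein whose gene is altered in these mice, and Rab7 and Rab24 are known for parts in autophagosome maturation.

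The Rab genes were taken by name as those whose symbol is Rab followed by a number, an optional letter and an optional digit, with Rab17 left out, on probe sets annotated with 1 gene symbol. This gave 58 Rab genes of the 18193 genes that the arrays name, measured by 130 probe sets, and each gene was represented by its brightest probe set over all 4 arrays. Of the 58, 42 had a mean signal high enough to be tested, and the other 16 were too dim.

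The study compared mice aged 7 weeks, Atg16l1 hypomorphs (an allele of Atg16l1 with reduced function) and wild-type controls, each with 2 animals and 1 Affymetrix array per animal. The RNA came from total thymocytes, which are all cells recovered from a thymus without sorting. The series text gives 1 male and 1 female per group without tying sex to an array, and the sources used here name neither the strain nor how the allele was made. In such bulk RNA, fewer cells of a type and less RNA per cell cannot be told apart.

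The median deposited signal was 38.4 and 27.4 on the hypomorph arrays, against 23.5 and 27.4 on the control arrays. Log2 signals were therefore centred on a common median, and all signals quoted below are the deposited, uncentred ones. After centring, the median log2 change over the 10242 tested genes was 0.21, and a "relative change" below is a gene's log2 change minus that median. Each limma p-value below tests the log2 change itself, not the relative change, also where it is printed beside a relative change. The targeted gene followed the labels: Atg16l1 gave signals of 108 and 70.8 on the hypomorph arrays, against 184 and 241 on the control arrays, with a log2 change of -1.57 ± 0.18 (SE; adjusted p 0.0174 in limma, n = 2 each). That call was lost in several alternative fits, among them without control replicate 1 (adjusted p 0.0906) and without control replicate 2 (adjusted p 0.112). The 11 thymocyte markers found on the array (such as Cd3e, Cd4, Cd8a, Rag1 and Ptcra) all gave signals of 183 or more on every array. Hypomorph replicate 2 stood apart from the other 3 arrays in a small part of the tested probe sets. After centring, 16 (0.0711% of 22519) were at least 8-fold below each other array and 13 (0.0577%) at least 8-fold above. The matching counts were 0 and 0 for hypomorph replicate 1, 5 and 0 for control replicate 1, and 0 and 0 for control replicate 2. Over all probe sets the log2 signals of hypomorph replicate 2 correlated with those of the other arrays at 0.951 to 0.954. The other arrays correlated with each other at 0.951 to 0.952.

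Rab6b was the Rab gene that stood out, and it did so on 1 array. Rab6b is the paralog of Rab6a, the Rab of retrograde and secretory traffic at the Golgi, and is best known from neurons. Its brightest probe set gave signals of 249 and 1.79 on the hypomorph arrays (replicates 1 and 2), against 216 and 231 on the control arrays. Hypomorph replicate 1 thus had the highest deposited signal of the 4 and hypomorph replicate 2 by far the lowest.

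All 4 Rab6b probe sets showed the same array as low. The second gave signals of 162 and 2.29 on the hypomorph arrays, against 115 and 112 on the control arrays. The third had 47.9 and 2.24 on the hypomorph arrays, against 43.6 and 67.3 on the control arrays. The fourth had 38.4 and 1.40 on the hypomorph arrays, against 33.0 and 60.9 on the control arrays. The 4 signals on hypomorph replicate 2, from 1.40 to 2.29, lay at or below the 10th percentile of all deposited signals (2.29), while the other 3 arrays had clear signals for each probe set. Between the hypomorph arrays the ratio of deposited signals, replicate 1 over replicate 2, was 139, 70.5, 21.4 and 27.4 for the 4 probe sets.

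**Figure D1:**
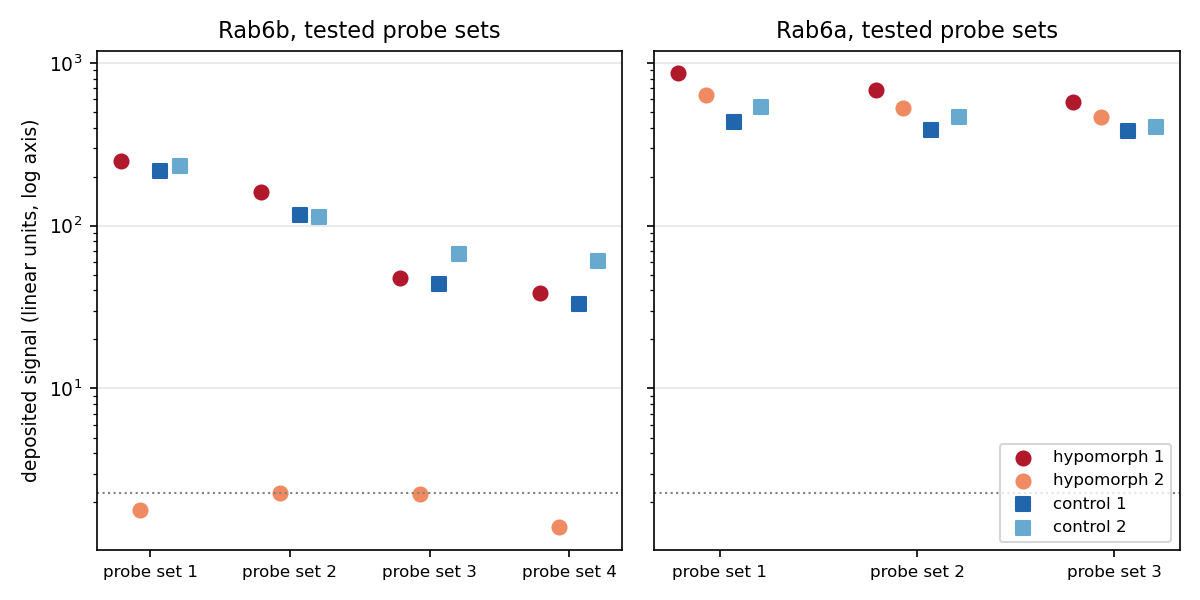
Deposited signals (linear units on a log axis) of the 4 tested Rab6b probe sets and the 3 tested Rab6a probe sets, ordered by mean signal, with circles for the hypomorph arrays and squares for the control arrays; the dotted line marks 2.29, the 10th percentile of all signals. Rab6b lies at 1.40 to 2.29 on hypomorph replicate 2 and at 33.0 or more elsewhere, whereas Rab6a spans 381 to 860 on all 4 arrays.

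The comparison of groups for Rab6b therefore rested on that animal. The centred log2 signal averaged 4.77 ± 3.88 in hypomorphs and 7.92 ± 0.07 in controls (SD, n = 2 each), a log2 change of -3.14 ± 1.22 (SE) that did not pass in limma (unadjusted p 0.0271, adjusted p 0.288). Without hypomorph replicate 2 the relative change was -0.57 (adjusted p 0.511), and without hypomorph replicate 1 it was -6.15 (adjusted p 1.41e-12, a fit in which the lone hypomorph array is assumed to vary like the controls). On the centred scale hypomorph replicate 1 lay 0.40 below the control mean and hypomorph replicate 2 lay 5.89 below it. Over all tested genes the medians of these differences were 0.17 and 0.26.

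Neither Rab6a nor the genes beside Rab6b showed low values on that array. Rab6a gave signals of 860 and 635 on the hypomorph arrays, against 430 and 538 on the control arrays, and its log2 change was 0.29 ± 0.13 (SE; adjusted p 0.318 in limma). Its other tested probe sets had 683 and 528 on the hypomorph arrays against 387 and 464 on the control arrays, and 572 and 465 on the hypomorph arrays against 381 and 404 on the control arrays. The 3 nearest tested genes on either side of Rab6b in the RefSeq gene order, looked up after its values were seen, were Msl2, Cep63 and Anapc13 on one side and Srprb, Topbp1 and Cdv3 on the other. Anapc13, an anaphase-promoting complex subunit, had 933 and 735 on the hypomorph arrays, against 396 and 582 on the control arrays. Srprb, the beta subunit of the signal recognition particle receptor, had 217 and 167 on the hypomorph arrays, against 91.2 and 149 on the control arrays. For all 6 neighbours the difference between the hypomorph arrays was at most 0.20 on the centred log2 scale, against 5.49 for Rab6b.

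The sequences in front of the Rab6 pair are shown because their transcripts parted on that array. They are RefSeq windows of assembly GRCm38.p6, each on the plus strand, from 250 bases before to 50 after a transcript start, at chr9:103111824-103112123 for Rab6b and chr7:100607336-100607635 for Rab6a. Capitals mark matches, on either strand, to CCAAT or to GGGCGG (the GC box); CACGTG, the E-box core, was searched too and was in neither window. No matches overlapped.
Rab6b: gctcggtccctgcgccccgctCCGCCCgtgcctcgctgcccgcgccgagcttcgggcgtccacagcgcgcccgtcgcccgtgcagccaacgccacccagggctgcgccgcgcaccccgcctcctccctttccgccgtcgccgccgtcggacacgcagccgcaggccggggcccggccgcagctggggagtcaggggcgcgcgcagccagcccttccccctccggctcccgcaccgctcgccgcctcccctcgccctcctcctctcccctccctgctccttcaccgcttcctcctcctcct
Rab6a: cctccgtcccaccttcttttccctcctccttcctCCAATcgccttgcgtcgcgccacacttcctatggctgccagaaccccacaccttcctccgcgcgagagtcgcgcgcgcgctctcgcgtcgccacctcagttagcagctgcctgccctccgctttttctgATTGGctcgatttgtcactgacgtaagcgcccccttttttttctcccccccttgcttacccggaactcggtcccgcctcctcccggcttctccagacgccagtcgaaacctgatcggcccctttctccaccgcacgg
The Rab6b window held 1 GC box and no CCAAT, and was 78.7% G or C. The Rab6a window held 2 CCAAT matches and no GC box, and was 62.7% G or C. Of 32851 such windows genome-wide, 35.7% held a GC box, 37.4% a CCAAT and 7.15% a CACGTG. The 59 windows of the 47 Rab genes with an entry held them in 69.5%, 44.1% and 10.2%. The median content of G and C was 61.3% in the Rab windows and 52.7% in all windows. These matches describe the letters and say nothing of which proteins bind there.

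Rab33b, the binding partner of ATG16L1, did not differ beyond the spread between arrays. Its single probe set gave signals of 351 and 296 on the hypomorph arrays, against 209 and 220 on the control arrays. The groups did not overlap, but the log2 change of 0.26 ± 0.15 (SE, 95% confidence interval -0.09 to 0.60) had an adjusted p of 0.408 in limma and lay 0.04 above the median of the tested genes. That relative change was -0.024 without hypomorph replicate 2 and -0.075 without control replicate 2. Rab33a, the closest relative of Rab33b, gave signals of 52.4 and 32.5 on the hypomorph arrays, against 35.2 and 41.3 on the control arrays. Its log2 change was -0.22 (adjusted p 0.723 in limma), or -0.43 relative to the median.

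As a family the Rab genes lay close to the other genes on the array. None of the 42 tested Rab genes passed an adjusted p of 0.05 in limma, where 0.0391% of all tested genes did. At an unadjusted p under 0.05, 10 Rab genes (23.8%) were higher in hypomorphs, against 18.2% of all tested genes, and 1 (Rab6b) was lower, against 0.84%. Both directions together gave 11 Rab genes and 19.0% of all tested genes. That number of Rab genes was 1 without control replicate 1 (8.35% of all tested genes), 2 without hypomorph replicate 2 (10.1%) and 1 when arrays were centred on the tested probe sets (6.82%). With quantile normalization, which equalises the arrays' distributions, only 2 Rab genes had an unadjusted p under 0.05, against 6.08% of all tested genes. They were Rab8b at a log2 change of -0.28 and Rab6b at -3.28. The number was 3 without the variance trend (11.4% of all tested genes), 6 with no pseudocount (15.8%) and 8 without centring (19.5%). By the mean of all probe sets of a gene it was 8 of 39 Rab genes (17.1%). With the filter at the 75th percentile it was 10 of 28 (26%), and with no filter 12 of 58 (13.5%). It was 17 with the pseudocount at the 25th percentile (24.8%) and 12 with the replicate block (19.9%). After centring, the groups did not overlap for 24 Rab genes that were higher (57.1%, against 51.9% of all tested genes) and 3 that were lower (7.14%, against 4.82%), which were Rab6b, Rab33a and Rab38. The median log2 change of the 42 was 0.25, or 0.04 above that of all tested genes. This excess was smaller than the spread of the Rab median between arrays of a group (pooled SD 0.07). Over the alternative settings it ranged from -0.01 to 0.08, the highest with no filter and all 58 Rab genes.

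Most Rab genes lay close to the centre. Of the 42, 33 (78.6%) were within 0.25 of the median of the tested genes, as were 75.1% of all tested genes, and 25 lay above that median and 17 below. The median SE of a Rab gene was 0.18 on the log2 scale, so most of these differences were below what 2 arrays per group can resolve. In simulated data of this design, 44.2% of 2-fold and 86.7% of 4-fold changes were recovered.

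**Figure D2:**
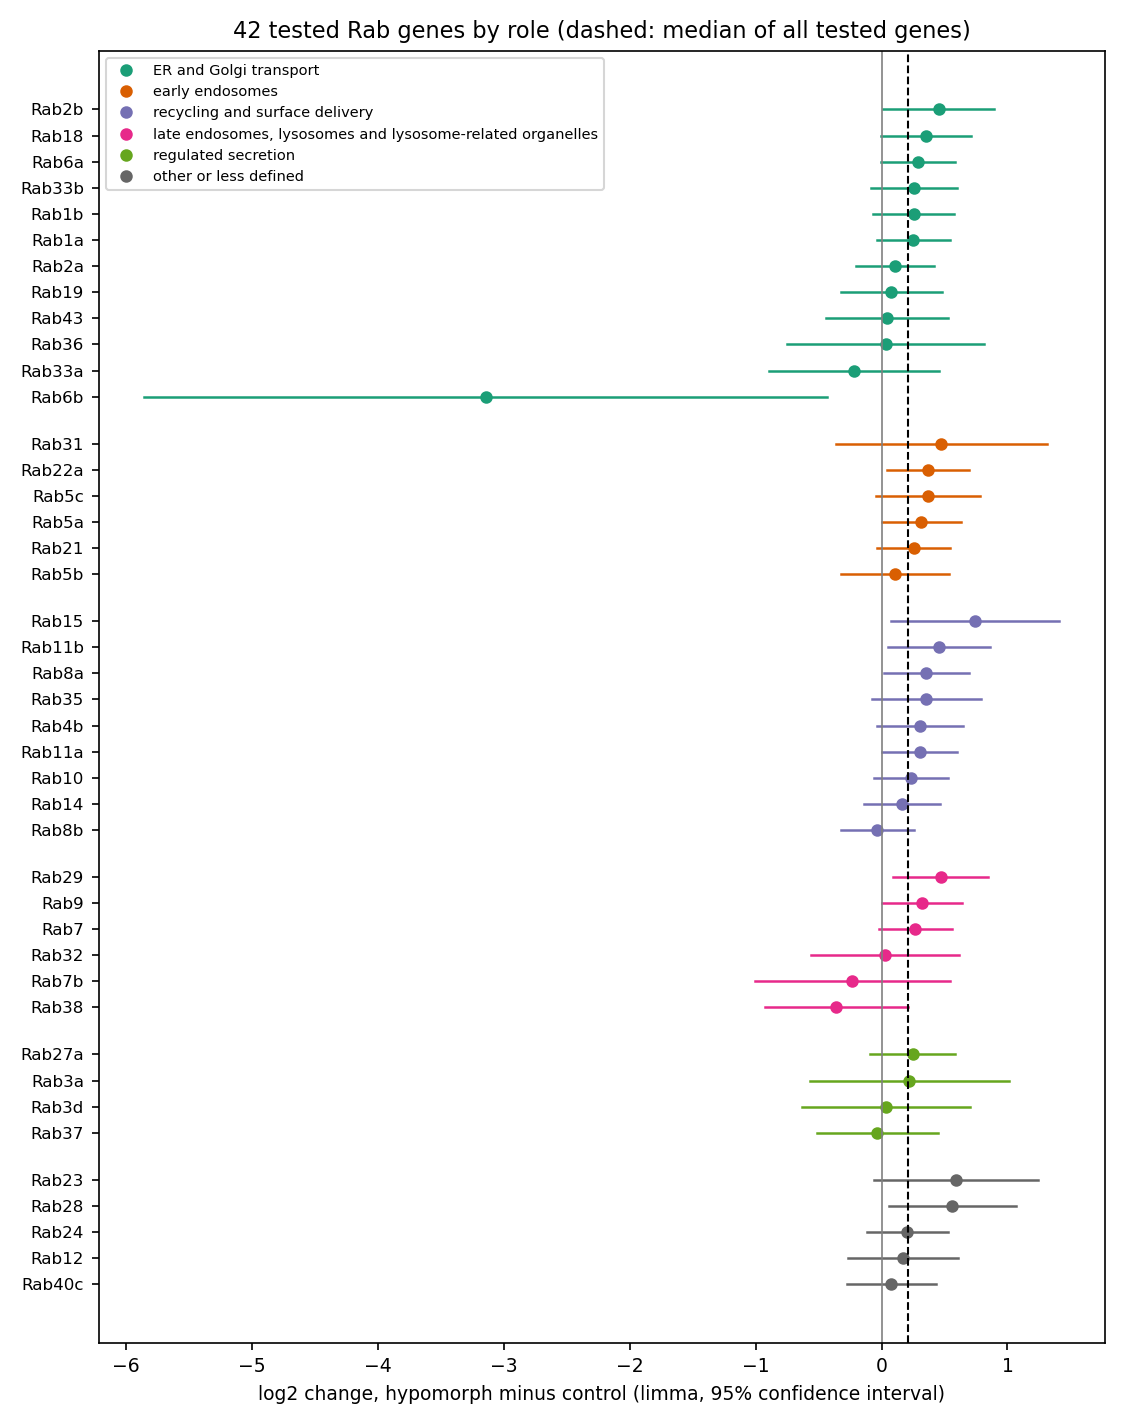
Log2 change, hypomorph minus control, of the 42 tested Rab genes, grouped by role, with points for the limma estimate and bars for its 95% confidence interval; the dashed line is the median of all tested genes, 0.21, and the grey line is 0. Most points lie near the dashed line, Rab6b at -3.14 has the widest interval, and no gene passed the adjusted threshold.

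Of the Rabs of transport between the endoplasmic reticulum and the Golgi, 12 of 14 genes were tested, 6 lay above the median of the tested genes and 6 below. Rab1a and Rab1b, which act in transport to the Golgi, had nearly the same log2 change, 0.25 ± 0.13 and 0.26 ± 0.14 (SE). Rab1a gave signals of 2444 and 1829 on the hypomorph arrays, against 1258 and 1586 on the control arrays. Rab1b had 598 and 427 on the hypomorph arrays, against 288 and 393 on the control arrays. For both, the hypomorph arrays lay above the control arrays after centring by about as much as a typical gene.

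Rab2a and Rab2b, a pair of Golgi Rabs also used in the delivery of material to lysosomes, were not tested against each other. Rab2a had 1452 and 1088 on the hypomorph arrays, against 790 and 1097 on the control arrays, and its relative change was -0.11. Rab2b had 160 and 150 on the hypomorph arrays, against 86.7 and 91.6 on the control arrays. Its log2 change was 0.46 ± 0.20 (SE; unadjusted p 0.0441, adjusted p 0.305 in limma). Relative to the median it was 0.24. Its probe sets disagreed, as described below, and by the mean of all of them its relative change was -0.28.

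Among the remaining Golgi and endoplasmic reticulum Rabs, Rab18, which is found on lipid droplets and the endoplasmic reticulum, had 729 and 551 on the hypomorph arrays, against 317 and 490 on the control arrays (relative change 0.14). Rab19, Rab36 and Rab43, less studied Golgi Rabs, lay between -0.13 and -0.18 relative to the median, and their groups overlapped after centring. Rab30 and Rab34 were too dim to be tested. Rab30 gave signals of 9.52 and 9.14 on the hypomorph arrays, against 1.88 and 1.65 on the control arrays, all under the test limit of 28.5.

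Early endosome Rabs lay slightly above the median, 5 of 6 tested genes, with a median relative change of 0.13. Rab5a, which drives fusion of early endosomes, had 1110 and 884 on the hypomorph arrays, against 539 and 742 on the control arrays. Its close homologue Rab5c had 492 and 543 on the hypomorph arrays, against 302 and 335 on the control arrays. The log2 change of Rab5c was 0.37 (adjusted p 0.346 in limma), or 0.16 relative to the median. That relative change was -0.10 without hypomorph replicate 2. Rab5b, the other homologue, had 174 and 171 on the hypomorph arrays, against 124 and 130 on the control arrays, and lay at -0.11. The SE of the 3 Rab5 genes was 0.14 to 0.19, and the differences among them were not tested.

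Rab22a, which acts between early and recycling endosomes, had 438 and 359 on the hypomorph arrays, against 217 and 274 on the control arrays. Its log2 change was 0.37 ± 0.15 (SE; unadjusted p 0.0306, adjusted p 0.291 in limma). Relative to the median it was 0.16. Rab21, a regulator of integrin traffic, had 807 and 593 on the hypomorph arrays, against 413 and 515 on the control arrays, and lay at 0.04. Rab31, a relative of Rab22a, had 60.4 and 28.6 on the hypomorph arrays, against 24.8 and 21.2 on the control arrays. After centring its groups overlapped, and its relative change was 0.26. Rab20 was dim, with signals of 0.979 to 3.55.

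Of 12 Rabs of recycling and surface delivery 9 were tested, and 7 of these lay above the median, with a median relative change of 0.09. Rab15, an endosomal Rab studied mainly in neurons, gave signals of 82.9 and 71.6 on the hypomorph arrays, against 41.9 and 30.0 on the control arrays. Both hypomorph signals exceeded both control signals, with a log2 change of 0.74 ± 0.30 (SE, 0.53 relative to the median, unadjusted p 0.0322, adjusted p 0.293 in limma). Leaving out control replicate 2 put the relative change at 0.15, and leaving out control replicate 1 put it at 0.91.

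Rab11b, a Rab of the slow recycling route, had 999 and 673 on the hypomorph arrays, against 362 and 625 on the control arrays. Its log2 change was 0.45 (adjusted p 0.293 in limma), or 0.24 relative to the median. Control replicate 1 was the low array here, and without it the relative change was 0.0048. Rab11a, its homologue, had 1064 and 763 on the hypomorph arrays, against 508 and 664 on the control arrays, and lay at 0.09. Rab4b, of the fast recycling route, lay also at 0.09, while its homologue Rab4a was too dim to be tested, with 21.6 and 21.5 on the hypomorph arrays, against 28.9 and 27.6 on the control arrays.

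By their brightest probe sets, Rab8a and Rab8b, which deliver vesicles to the cell surface, lay on opposite sides of the median. The second tested Rab8a probe set lay below the median, at -0.51, as described below. Rab8a had 896 and 629 on the hypomorph arrays, against 383 and 569 on the control arrays. Its log2 change was 0.36 (adjusted p 0.302 in limma), or 0.14 relative to the median. Rab8b had 992 and 790 on the hypomorph arrays, against 654 and 796 on the control arrays. Its log2 change was -0.03 ± 0.13 (SE; adjusted p 0.907 in limma), or -0.25 relative to the median. The difference between the paralogs was not tested.

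Rab10, known for moving glucose transporters to the surface, had 754 and 511 on the hypomorph arrays, against 401 and 439 on the control arrays (relative change 0.02). Rab14, which links recycling endosomes to the Golgi, had 2117 and 1807 on the hypomorph arrays, against 1288 and 1502 on the control arrays (-0.05). Rab35, which works in recycling to the surface and in cytokinesis, had 881 and 500 on the hypomorph arrays, against 316 and 538 on the control arrays (0.14), with overlapping groups. Rab13 and Rab25, which are best known from epithelia, were too dim to be tested.

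Of the Rabs of late endosomes, lysosomes and lysosome-related organelles, 6 of 9 were tested, 3 lay above the median and 3 below. Rab7, which brings late endosomes and autophagosomes to fusion with lysosomes, had 1729 and 1294 on the hypomorph arrays, against 874 and 1120 on the control arrays. Its log2 change was 0.27 ± 0.13 (SE, adjusted p 0.337 in limma), or 0.05 relative to the median. Rab9, which returns cargo from late endosomes to the Golgi, had 718 and 609 on the hypomorph arrays, against 372 and 477 on the control arrays (relative change 0.11). Rab29, a Rab of the Golgi and lysosomes that recruits the kinase LRRK2, had 308 and 264 on the hypomorph arrays, against 139 and 192 on the control arrays. It had the smallest unadjusted p of the family (0.0192, adjusted p 0.274), at a log2 change of 0.47 ± 0.17 (SE, 0.26 relative to the median).

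The 3 below the median did not pass the test. Rab38, which serves melanosomes together with Rab32, had 59.4 and 47.7 on the hypomorph arrays, against 50.0 and 59.2 on the control arrays. After centring both hypomorph values lay below both control values (log2 change -0.36 ± 0.26 SE, -0.57 relative to the median, adjusted p 0.480). Rab32 had 88.1 and 68.7 on the hypomorph arrays, against 44.7 and 81.0 on the control arrays. Its log2 change was 0.03 (adjusted p 0.966 in limma), or -0.19 relative to the median. Rab7b, a late endosomal Rab described in myeloid cells, had 34.6 and 37.1 on the hypomorph arrays, against 33.0 and 33.8 on the control arrays. Its log2 change was -0.23 (adjusted p 0.747 in limma), or -0.45 relative to the median.

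Marker lists of other cell types lay on both sides of the median. Of 7 macrophage markers none lay above the median of the tested genes (median relative change -0.48), with summed signals of 748 and 362 on the hypomorph arrays, against 515 and 500 on the control arrays. None of the 6 dendritic cell markers did either (-0.43, summed signals of 3070 and 2321 on the hypomorph arrays, against 2513 and 2647 on the control arrays). Of 5 B cell markers 1 did (-0.69, summed signals of 523 and 389 on the hypomorph arrays, against 407 and 588 on the control arrays). The lowest signal among the listed markers of these 3 types was 17.2, for Ccl17 on hypomorph replicate 1. Of 6 granulocyte markers 5 lay above the median (0.28). They summed to 2844 and 3506 on the hypomorph arrays, against 529 and 5509 on the control arrays, so control replicate 1 was low in them. The other lists were dimmer, with summed signals of 155 and 106 on the hypomorph arrays, against 114 and 111 on the control arrays for platelets, and 31.5 and 11.5 on the hypomorph arrays, against 4.93 and 17.9 on the control arrays for erythroid cells. Those of thymic epithelium were 233 and 120 on the hypomorph arrays, against 120 and 149 on the control arrays. None of the listed markers passed the adjusted threshold. The part of these cells in the Rab values was not tested.

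Secretory Rabs gave no difference beyond error. Rab27a, needed by cytotoxic T cells to release lytic granules, had 569 and 524 on the hypomorph arrays, against 333 and 401 on the control arrays (relative change 0.04, adjusted p 0.417). Rab3a, the synaptic vesicle Rab, had 197 and 287 on the hypomorph arrays, against 220 and 119 on the control arrays, the widest spread between control arrays among the 42 tested Rab genes (1.07 on the log2 scale). Rab3d and Rab37, found on secretory granules, lay at -0.18 and -0.25. Rab3b, Rab3c, Rab26 and Rab27b were too dim to be tested.

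In the remaining group, Rab23, an inhibitor of Hedgehog signalling, had 74.8 and 58.1 on the hypomorph arrays, against 26.3 and 43.3 on the control arrays (relative change 0.38, adjusted p 0.338). Rab28, linked to cilia, had 187 and 149 on the hypomorph arrays, against 66.2 and 120 on the control arrays (0.35, adjusted p 0.293). In both, control replicate 1 was the lowest array, and without it their relative changes were 0.20 and 0.09. Rab24, linked to autophagy, had 484 and 402 on the hypomorph arrays, against 269 and 344 on the control arrays (-0.01). Rab12, which acts on recycling endosomes and lysosomes, had 173 and 112 on the hypomorph arrays, against 81.6 and 118 on the control arrays (-0.04). Rab40c, a Rab linked to ubiquitin ligases, had 304 and 255 on the hypomorph arrays, against 181 and 242 on the control arrays (-0.14).

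The dim Rabs not yet named, Rab9b, Rab39, Rab39b, Rab40b, Rab42 and Rab44, gave signals of 1.86 to 23.9, and all 16 untested genes had mean signals of 2.24 to 24.9. Their signals are too close to the low end of the arrays to order the groups.

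The hypomorph arrays were otherwise alike for Rab genes. The absolute log2 difference between them had a median of 0.20 over the 42 Rab genes and 0.18 over all tested genes. Between the control arrays it was 0.19 and 0.18. Rab6b was the single Rab gene with a difference above 1 between the hypomorph arrays (2.38% of Rab genes, 2.20% of all tested genes), and Rab3a the single one between the control arrays.

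**Figure D3:**
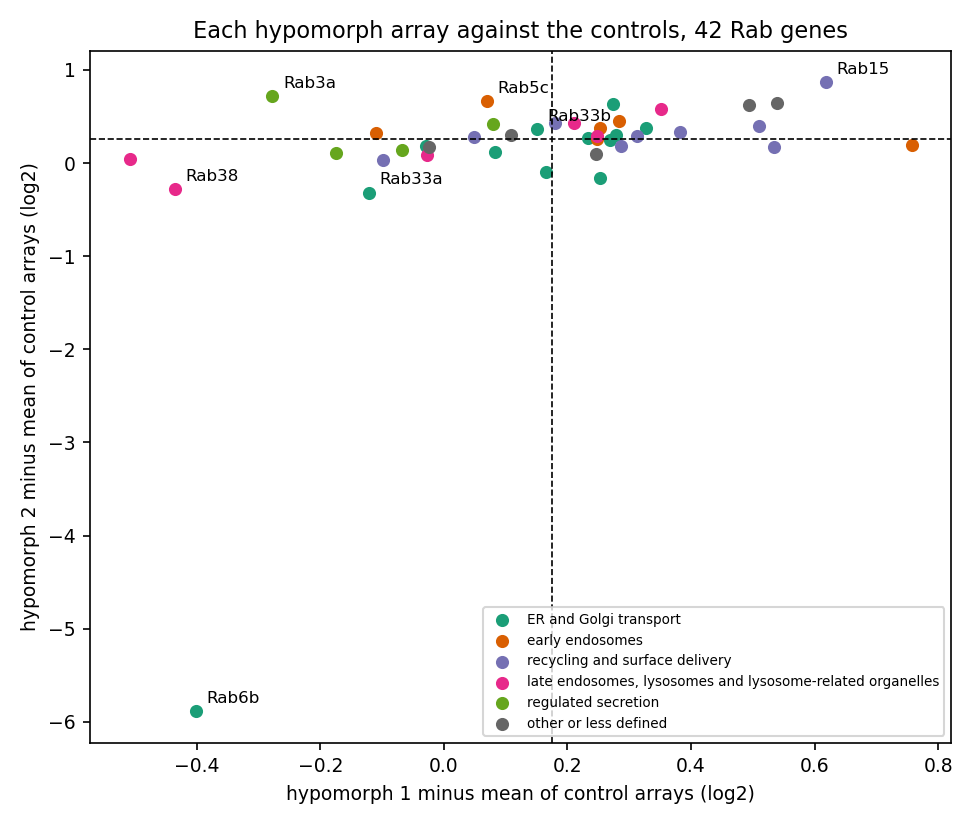
Centred log2 signal of hypomorph replicate 1 (horizontal) and hypomorph replicate 2 (vertical), each minus the mean of the control arrays, for the 42 tested Rab genes coloured by role; the axes differ in scale, and dashed lines mark the medians of all tested genes, 0.17 and 0.26. Rab6b lies at -0.40 and -5.89, apart from the other 41 genes.

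Probe sets of one gene often parted in sign but seldom by much. Of 24 Rab genes with several tested probe sets, 9 had all of them on one side of the median of the tested genes and 15 did not. The median span between probe sets of a gene was 0.22 on the log2 scale, close to the SE of a single one, and it exceeded 0.5 for 4 genes, Rab2b, Rab6b, Rab8a and Rab2a. Both probe sets agreed for Rab7 (0.05 and 0.15), Rab28 (0.35 and 0.38), Rab37 (-0.25 and -0.31) and Rab38 (-0.57 and -0.58), and all 4 for Rab6b (-2.45 to -3.36).

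Rab2b had the widest span, 1.40, and hypomorph replicate 2 was again low. One of its 5 probe sets had 68.2 and 12.6 on the hypomorph arrays, against 45.2 and 49.9 on the control arrays (relative change -1.16, adjusted p 0.358). Its brightest probe set showed no such drop, with 150 on that array. The rest lay at 0.03, -0.21 and -0.41. The second Rab8a probe set had 62.8 and 62.3 on the hypomorph arrays, against 58.9 and 63.5 on the control arrays, at -0.51. One Rab2a probe set lay at 0.40 and the second of Rab40c at 0.35, both against negative values for the brightest. The brightest probe sets of Rab14 and Rab22a are of the type whose probes can match several transcripts, and those of Rab38 and Rab3a of the type whose probes can match unrelated sequences, so their values are less certain.

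**Figure D4:**
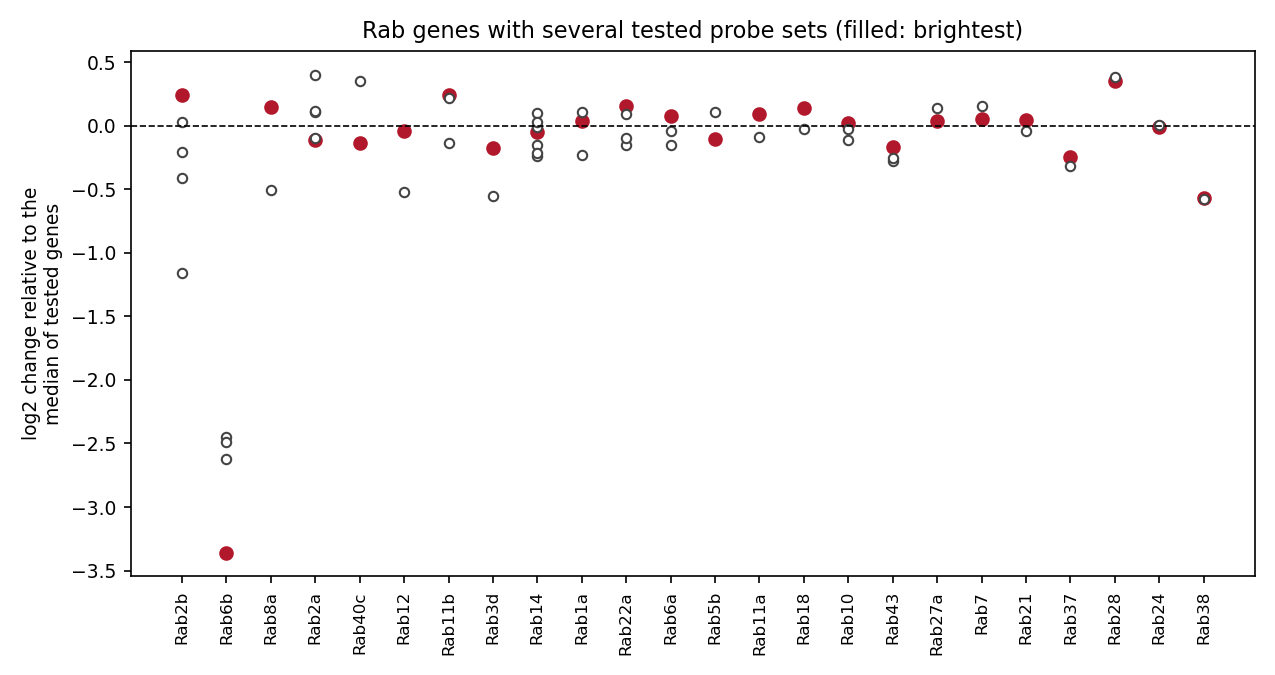
Log2 change relative to the median of all tested genes for every tested probe set of the 24 Rab genes that have several, ordered by span, with the brightest probe set filled and the others open. The 4 Rab6b probe sets lie between -3.36 and -2.45, the 5 of Rab2b between -1.16 and 0.24, and most other genes span much less.

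The genes that load, activate, inactivate and read out Rabs gave a similar picture. Of 114 listed regulators and effectors 108 were on the array and 93 were tested. None passed the adjusted threshold in limma, where 0.0391% of all tested genes did, and at an unadjusted p under 0.05, 12 were higher (12.9%, against 18.2% of all tested genes) and 0 lower (against 0.84%). Their median relative change was -0.02, with 44 above the median and 49 below. The 7 prenylation and extraction genes had a median relative change of 0.03, the 27 exchange factors -0.06, the 26 GTPase-activating proteins -0.02 and the 33 effectors -0.01.

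The smallest p-values were those of a pair of GTPase-activating proteins, which switch Rabs off. Tbc1d17 had 172 and 112 on the hypomorph arrays, against 34.6 and 71.1 on the control arrays, with a log2 change of 1.11 ± 0.27 (SE, adjusted p 0.214 in limma). Tbc1d15, which acts on Rab7, had 583 and 684 on the hypomorph arrays, against 282 and 341 on the control arrays, with a log2 change of 0.69 ± 0.20 (SE, adjusted p 0.251). For both, the hypomorph arrays lay above the control arrays, also after centring. After centring the same held for 51.9% of all tested genes. Relative to the median, Tbc1d17 and Tbc1d15 lay at 0.90 and 0.48. Next came Rabif, a small Rab-binding protein, with a log2 change of 0.41 (0.19 relative to the median, adjusted p 0.259 in limma). Dennd4c, an exchange factor for Rab10, followed with 0.48 (0.26 relative to the median, adjusted p 0.263).

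On the lower side, Tbc1d16, another GTPase-activating protein, had 68.1 and 39.5 on the hypomorph arrays, against 54.8 and 58.1 on the control arrays (log2 change -0.44 ± 0.26 SE, adjusted p 0.403). The effector Rufy3 had 83.6 and 71.0 on the hypomorph arrays, against 65.4 and 90.6 on the control arrays (-0.33, adjusted p 0.467). Rab3ip, an exchange factor for Rab8, had 382 and 286 on the hypomorph arrays, against 270 and 289 on the control arrays (-0.09, adjusted p 0.769). Tbc1d25, a GTPase-activating protein of Rab33b, had 136 and 98.0 on the hypomorph arrays, against 119 and 87.6 on the control arrays. Its log2 change was -0.15 ± 0.23 (SE; adjusted p 0.748 in limma). Relative to the median, Tbc1d16, Rufy3, Rab3ip and Tbc1d25 lay at -0.66, -0.54, -0.30 and -0.37. Gdi2, which extracts Rabs from membranes, had 4136 and 3542 on the hypomorph arrays, against 2232 and 2968 on the control arrays, 0.03 relative to the median. Rab3gap1 and Rab3gap2, the subunits of an exchange factor for Rab18, lay at 0.12 and -0.08.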

How the data were processed

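Total thymocyte RNA of 4 mice was hybridised to Affymetrix arrays. Each deposited value is the intensity of a probe set, linear and not log-transformed, which the authors obtained with GCOS, per the submitters' processing notes, which name no version or scaling. Of 45101 probe sets, 64 controls were left out. Genes were named from GEO's platform annotation (34945 probe sets with 1 symbol, 932 with several, 9160 with none), and all 58 Rab symbols matched RefSeq through their gene IDs.

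Tests used log2(signal + 2.29), where 2.29 is the 10th percentile of all signals, with each array centred on the common median since array medians spanned 0.708. The 22519 probe sets at or above the median of mean signals were tested with limma 3.58.1 in R 4.3.3 (lmFit, eBayes with variance trend, two-sided, Benjamini-Hochberg over all tested probe sets, threshold 0.05). This scale, log2(value + pseudocount), makes the changes of dim genes look smaller. Nothing beyond the series text on independent animals describes the replicates. For a single value, the smallest exact permutation p with 2 arrays a group is 0.333. The fit was tested on 10 data sets simulated from its own variance model with 200 changed probe sets, where 4.53% of calls were false. Rab members, role groups, the 114 regulators and effectors and the named genes (Rab33b, Rab33a, Rab6a, Rab6b, up to 8 highest and 8 lowest relative changes among genes whose groups did not overlap, genes whose probe sets disagree, and the regulators with the smallest p) were chosen with earlier results of these data known. Alternatives changed the normalization, pseudocount, filter, variance trend, replicate block, summary per gene and arrays. Same-numbered arrays correlated at 0.0892 in their deviations from group means, and the labels do not tie the numbers together.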

Additional observations from a re-analysis of the deposited data

How the results depend on the processing

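The median relative change of the 42 Rab genes and that of their regulators moved by less than the spread between arrays under all 15 alternatives. No Rab gene was called except Rab6b, which was called without centring (relative change -3.36, adjusted p 5.77e-11, 1 Rab gene called, in a fit with infinite prior degrees of freedom in which its own spread carried no weight) and without hypomorph replicate 1. Leaving out arrays gave 0 to 1 called Rab genes and 0 to 2 called regulators (Tbc1d15 and Hps1 without hypomorph replicate 1), and 1 regulator, Tbc1d17, was called without centring. Relative changes on leaving out arrays ranged from -6.15 to -0.57 for Rab6b, -0.075 to 0.16 for Rab33b and -0.10 to 0.41 for Rab5c. With the mean of all probe sets of a gene, Rab6a was at -0.017 and Rab2b at -0.28. With the filter at the 75th percentile only 7 of the 13 genes named by size or by role were tested. The median log2 change of the 42 Rab genes, 0.25, was 0.017 with quantile normalization, 0.58 without centring and 0.079 when centred on the tested probe sets. That of all tested genes was 0.21, against 0.025 with quantile normalization, 0.54 without centring and 0.039 when centred on the tested probe sets, and relative changes are free of it. All called probe sets numbered 12, against 4 with quantile normalization, 79 without centring, 7 when centred on the tested probe sets, 4 without a filter, 0 without the variance trend (where 11.4% of tested genes had an unadjusted p under 0.05), 6 with the replicate block and 7 to 384 on leaving out arrays. With the replicate block the relative change of Atg16l1 was -1.79 but its adjusted p 0.0614, and no Rab call changed. Atg16l1 also lost its call without centring (-1.79), without a filter (-1.72), without the variance trend (-1.79) and when its probe sets were averaged (-0.76), with -1.90 to -1.68 on leaving out arrays. A filter on mean log2 signals, added after seeing the data, changed no call of a Rab gene. Signals near the low end of the arrays, such as those of the 16 untested genes, limit what can be compared. The cause of these shifts was not tested.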

Other observations

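Rab6b was not alone in being low on hypomorph replicate 2. Of the 16 tested probe sets at least 8-fold below each other array there, 4 were those of Rab6b. Dzip1, a protein of the ciliary base, had 1046 and 5.94 on the hypomorph arrays, against 742 and 801 on the control arrays. The brightest probe set of Bfar, an apoptosis regulator of the endoplasmic reticulum, had 533 and 18.1 on the hypomorph arrays, against 347 and 440 on the control arrays. Its other one had 387 and 2.35 on the hypomorph arrays, against 170 and 250 on the control arrays. Rpgrip1 had 2225 and 130 on the hypomorph arrays, against 1310 and 1412 on the control arrays. Among the 13 probe sets at least 8-fold above the other arrays, H2-T3, which encodes the thymus leukaemia antigen, had 10.2 and 1524 on the hypomorph arrays, against 12.7 and 5.49 on the control arrays. These genes were chosen after their values were seen.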
